A study of Mus musculus with 6 samples.

Results

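Collagens are the main fibrous proteins of the extracellular matrix, and each collagen molecule is a triple helix wound from chains that are encoded by separate genes. Fibrillar collagens form the cable-like fibrils of connective tissue, basement membrane collagens form sheets under epithelia and around vessels and glia, and cartilage collagens make or coat the fibrils of cartilage. In the newborn cord most fibril-forming collagen is made outside the neural tissue itself, by fibroblasts of the meninges and of peripheral nerves and by cells around vessels, while a few chains are made by neurons or glia. The collagen chain genes described here are the rows whose symbol reads Col, a number, the letter a and a number, which gave 44 of the 55487 genes in the deposited table. Of these, 35 reached a mean of 1 TPM over the samples and were tested, and 9 did not. Levels are in TPM, a unit that takes transcript length and the sum of each library into account, so different chains can be compared on it.

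RNA came from the thoracic spinal cord of mice at postnatal day 0, from 3 wild-type samples (WT 1, WT 2 and WT 3) and 3 samples of genotype Myt1-/- (null 1, null 2 and null 3). The 2 genotypes were the only groups, and no treatment is named. Neither the strain nor the way the allele was made is given. Myt1 encodes a neural zinc finger protein, and the study looked for genes downstream of it because oligodendrocytes differentiate late without it. The labels do not say whether each sample was a different animal, so the p-values cover the spread between these samples only, and that spread may be technical.

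Myt1 was at 11.54, 11.53 and 13.61 TPM in the WT libraries and at 6.14, 5.36 and 5.28 TPM in the null libraries, so the groups did not overlap, though without the position of the deleted part its transcript level says little about the allele. The thoracic Hox gene Hoxc8 lay between 56.28 and 76.12 TPM in the 6 samples. The table gives no read counts, so the depth of each library is unknown. The mitochondrial genome's own transcripts took 11.3% of WT 1 and between 8.64% and 9.04% of each other library.

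All 44 chains together made up 1341.65, 2394.06 and 3078.82 TPM in WT 1, WT 2 and WT 3, and 2072.64, 2116.17 and 2093.77 TPM in null 1, null 2 and null 3. The summed level was 2.29-fold higher in WT 3 than in WT 1, whereas the null libraries differed by 1.02-fold at most and lay between WT 1 and WT 2. The groups overlapped, and none of the 35 tested collagens reached an adjusted p under 0.05 in limma (a linear model fitted on log2(TPM + 1) of all 15962 genes tested, Benjamini-Hochberg adjusted). The share of all genes tested that reached it was also 0%. Before adjustment 3 of the 35 (8.57%) had a p under 0.05 and were lower in the null, against 3.13% of all genes tested, and 0 of 35 were higher, against 4.32% (7.45% in either direction). The median collagen member differed by 0.01 on the log2 scale, null minus WT, beside 0.03 for all genes tested.

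The summed collagen level differed more between WT libraries than between genotype means, and so did many single members, though not Col11a2. WT 1 was the lowest library for 23 of the 35 tested members (65.7%, against 39.8% of all genes tested) and WT 3 the highest for 25 (71.4%, against 20.1%). In 20 members (57.1%, against 24.3%) all 3 null values lay inside the WT range. The coefficient of variation was larger in WT than in the null for 32 of 35 members (91.4%, against 62.6% of all genes tested), with a median of 29.3% in WT and 7.32% in the null. These shares are descriptions of 6 libraries and were not tested.

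**Figure D1:**
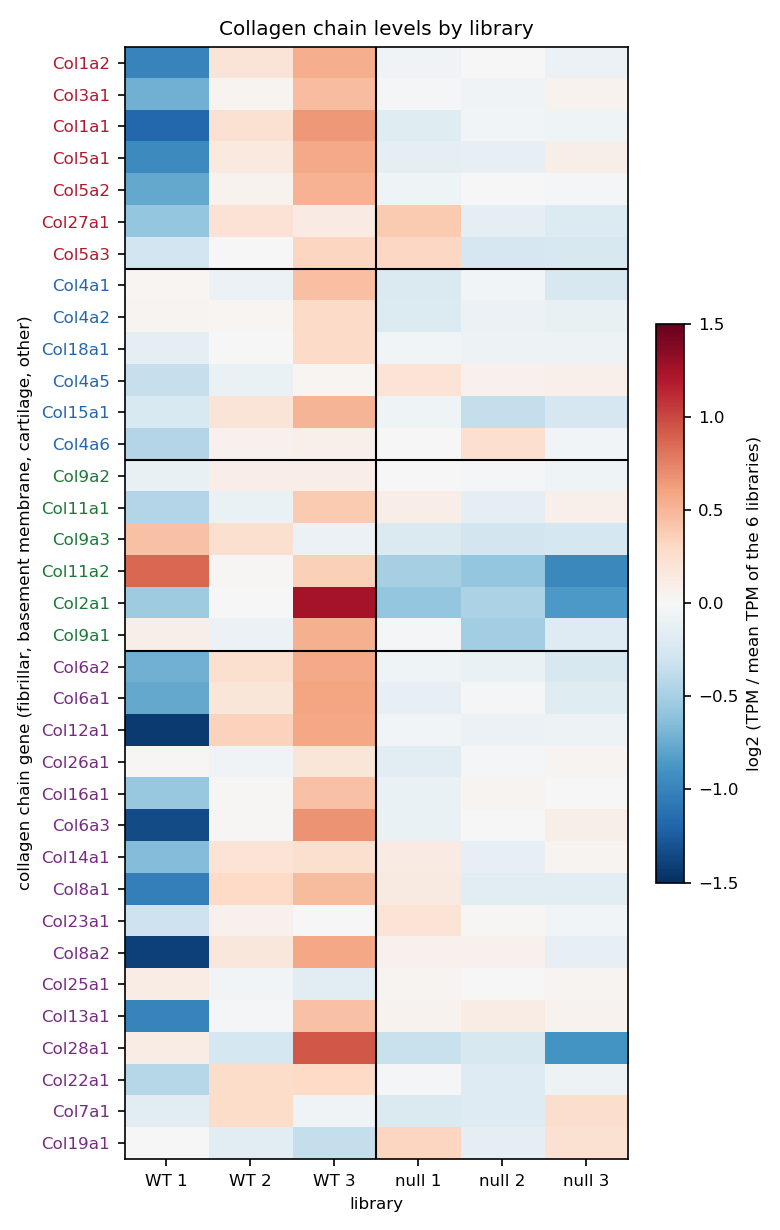
Level of each of the 35 tested collagen chain genes (rows, grouped as fibrillar, basement membrane, cartilage and other from top to bottom) in the 6 libraries (columns), as log2 of TPM over the mean TPM of the 6 libraries. WT 1 is the lowest library for 23 genes and WT 3 the highest for 25, with Col11a2 and Col9a3 among those highest in WT 1.

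Fibrillar chains were the most abundant collagens and had the highest median spread of the 4 classes among the WT libraries. Type I collagen, the main fibril of bone, skin and the outer meninges, is built from the chains of Col1a1 and Col1a2. Col1a2 (chromosome 6, 4504814 to 4541544, plus strand, GRCm38) was at 233.7, 534.14 and 680.11 TPM in WT 1, WT 2 and WT 3 and at 449.77, 466.81 and 441.59 TPM in null 1, null 2 and null 3. Col1a1 (chromosome 11, 94936224 to 94953042, plus strand) was at 163.28, 429.88 and 579.26 TPM in the WT libraries and at 325.65, 358.78 and 351.29 TPM in the null libraries. In both genes WT 1 was the lowest library, WT 3 the highest, and every null library lay between WT 1 and WT 2. WT 3 exceeded WT 1 by 2.91-fold for Col1a2 and 3.55-fold for Col1a1. The ratio of Col1a1 to Col1a2 TPM stayed between 0.699 and 0.852 in the 6 libraries, so the chains of type I collagen kept a similar proportion while their level moved.

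Col3a1 (chromosome 1, 45311538 to 45349706, plus strand), which encodes the type III chain of pliable connective tissue, was at 223.81, 380.39 and 507.5 TPM in the WT libraries and at 363.45, 355.27 and 382.82 TPM in the null libraries. Type V collagen joins type I fibrils and limits their thickness. Its chain gene Col5a1 was at 21.86, 47.28 and 63.31 TPM in the WT libraries and at 38.69, 39.09 and 45.07 TPM in the null libraries, and Col5a2 at 20.78, 36.52 and 50.69 TPM in the WT libraries and at 33.77, 35.15 and 34.98 TPM in the null libraries. These genes were, like those of type I, lowest in WT 1 and highest in WT 3, with the null inside the WT range. The minor fibrillar chains Col27a1 and Col5a3 averaged 4.46 and 3.66 TPM over the 6 libraries, and Col24a1, at 0.512 TPM, was below the filter.

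Chains that make the fibrils of cartilage, Col2a1, Col11a1 and Col11a2, were placed in the cartilage class and are described there. None of the 7 tested genes of the fibrillar class had a p under 0.05 before adjustment. Their log2 differences, null minus WT, ran from -0.06 to 0.07 with a median of 0.03, but the intervals were wide: the difference was 0.04 for Col1a2 (95% interval -0.82 to 0.91), 0.00 for Col1a1 (-1.02 to 1.02) and 0.06 for Col3a1 (-0.58 to 0.71). The sign of most of these differences depended on WT 1, and leaving out WT 3 moved their median the other way. Without WT 1 all 7 were negative, with a median of -0.31, and the difference was -0.41 for Col1a2 (95% interval -0.67 to -0.15), -0.53 for Col1a1 (-0.86 to -0.20) and -0.26 for Col3a1 (-0.57 to 0.05). Without WT 3 the median was 0.33, and the difference was 0.36 for Col1a2, 0.38 for Col1a1 and 0.33 for Col3a1. The p of these 3 before adjustment by limma was 0.327, 0.370 and 0.182. With median-ratio scaling Col1a1 and Col5a1 were at -0.02 and -0.01.

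The regions before the start sites of the most abundant fibrillar genes are shown because the transcripts of both were lowest in WT 1 and highest in WT 3. They are the RefSeq windows of GRCm38.p6, from 250 bases before to 50 bases after the annotated start, which matched 35 of the 44 members (Col1a1 was not among them). Capitals mark the CCAAT box, the TATA box searched as TATAAA, and the GC box searched as GGGCGG, each on either strand, and positions count the start site as 0. The Col1a2 window is chr6:4505368-4505667, plus strand, and the Col3a1 window is chr1:45311288-45311587, plus strand.
Col1a2: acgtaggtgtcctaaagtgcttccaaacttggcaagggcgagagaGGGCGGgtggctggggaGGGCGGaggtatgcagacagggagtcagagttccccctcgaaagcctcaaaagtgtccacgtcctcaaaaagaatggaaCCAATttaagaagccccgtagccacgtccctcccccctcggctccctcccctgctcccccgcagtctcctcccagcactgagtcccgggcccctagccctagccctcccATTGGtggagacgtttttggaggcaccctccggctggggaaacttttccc
Col3a1: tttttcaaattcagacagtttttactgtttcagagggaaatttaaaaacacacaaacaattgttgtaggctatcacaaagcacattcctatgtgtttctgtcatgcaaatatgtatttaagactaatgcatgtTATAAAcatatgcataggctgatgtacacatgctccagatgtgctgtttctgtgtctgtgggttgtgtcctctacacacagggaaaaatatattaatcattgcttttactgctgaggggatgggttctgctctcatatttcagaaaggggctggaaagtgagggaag
The Col1a2 window held CCAAT at -109 and its complement at 0 and GGGCGG at -205 and -188. The Col3a1 window held neither of these and had TATAAA at -117. CCAAT was present on either strand in 37.4% of all 32851 windows of this length, TATAAA in 13.6% and GGGCGG in 35.7%, and in 34.2%, 13.2% and 60.5% of the 38 windows of collagen genes. The RefSeq start of Col1a2 lies inside the GENCODE gene rather than at its first base.

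The summed markers of meningeal fibroblasts were, like the summed fibrillar collagens, lowest in WT 1 and highest in WT 3. The 16 markers, all of them detected, summed to 1075.94, 2274.96 and 2675.48 TPM in WT 1, WT 2 and WT 3 and to 1719.99, 1894.09 and 1831.91 TPM in null 1, null 2 and null 3. WT 1 was the lowest library for 11 of the 16 and WT 3 the highest for 11. Dcn, which encodes decorin, a proteoglycan that binds collagen fibrils, was at 70.13, 130.96 and 176.96 TPM in the WT libraries and at 124.77, 128.27 and 122.63 TPM in the null libraries, and from highest to lowest it ranked the 6 libraries exactly as Col1a2 and Col6a1 did. Igf2, the most abundant marker of the list, ranged from 596.95 TPM in WT 1 to 1772.38 TPM in WT 3. It made up most of the sum in each library. Mgp, the next, averaged 155 TPM over the WT and 139.5 TPM over the null libraries. Not every marker followed: Aldh1a2 was at 41.51, 28.13 and 43.52 TPM and Foxc1 at 4.9, 5.2 and 5.16 TPM in the WT libraries. In the null libraries Aldh1a2 was at 30.33 to 32.51 TPM and Foxc1 at 4.31 to 5.07 TPM, so neither was lowest in WT 1. In RNA from whole tissue, fewer cells of a type and less RNA per cell cannot be told apart, and the part that fibroblast content had in the collagen levels was not tested.

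Dividing by Dcn, a reference chosen after the values were seen, narrowed the spread of most fibrillar collagens. Because Dcn ranks the libraries as Col1a2 does, the narrowing says nothing of the cells that made them. The ratio of the highest to the lowest library had a median of 2.44 over the 7 tested fibrillar genes as TPM and of 1.22 as TPM per Dcn TPM. Col5a2 fell within 1.09-fold over all 6 libraries after the division, Col3a1 within 1.15-fold and Col1a2 within 1.22-fold. The spread narrowed for 6 of 7 fibrillar genes, 11 of 16 other collagens, 2 of 6 cartilage collagens and 0 of 6 basement membrane collagens. For all genes tested it narrowed in 9.4%.

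**Figure D2:**
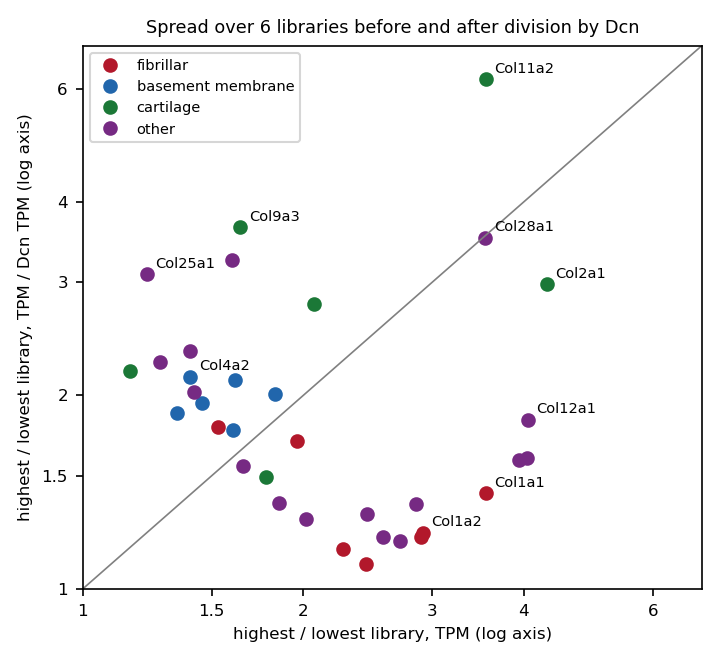
Ratio of the highest to the lowest of the 6 libraries for each of the 35 tested collagen genes, in TPM (horizontal, log axis) and in TPM divided by Dcn TPM (vertical, log axis), with points coloured by class and a line where both are equal. Fibrillar genes lie mostly below the line, such as Col1a2 at 2.91 and 1.22, while all 6 basement membrane genes lie above it.

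The 16 tested collagens outside the fibrillar, basement membrane and cartilage groups had log2 differences from -0.64 to 0.21 with a median of 0.04, and none had a p under 0.05 before adjustment. With the untested members of the class they made up 341.54 to 769.55 TPM in the WT libraries and 527.56 to 542.38 TPM in the null libraries, and WT 1 was the lowest library for 11 of the 16 and WT 3 the highest for 12. Type VI collagen forms beaded filaments around cells and is assembled from the chains of Col6a1, Col6a2 and Col6a3. Col6a1 was at 51.29, 98.93 and 131.75 TPM in the WT libraries and at 80.13, 85.64 and 77.01 TPM in the null libraries. Col6a2 was at 54.74, 106.93 and 133.6 TPM in the WT libraries and at 86.12, 84.42 and 76.65 TPM in the null libraries. Col6a3 was at 18.82, 48.16 and 75.99 TPM in the WT libraries and at 44.62, 47.73 and 50.81 TPM in the null libraries. All 3 genes were lowest in WT 1 and highest in WT 3, with the null inside the WT range. Col6a1 to Col6a2, which lie on chromosome 10, kept a ratio of 0.925 to 1.01, while Col6a1 to Col6a3 ranged from 1.52 to 2.73 with the highest value in WT 1.

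Per Dcn TPM, the type VI chains Col6a1 and Col6a2 were lower in each null library than in each WT library. Col6a1 per Dcn was 0.731, 0.755 and 0.745 in WT and 0.642, 0.668 and 0.628 in the null. Col6a2 per Dcn was 0.781, 0.817 and 0.755 in WT and 0.690, 0.658 and 0.625 in the null. The third chain gene of type VI did not share this. Col6a3 per Dcn was 0.268, 0.368 and 0.429 in WT and 0.358, 0.372 and 0.414 in the null, with overlap and a higher null mean. With this reference the groups did not overlap, and were lower in the null, for 5 of 35 members (Col6a1, Col6a2, Col15a1, Col2a1 and Col11a2), against 1.17% of all genes tested, and were higher for 1, Col13a1, against 0.752%. That background counts many genes whose spread the division widened, and these ratios were not tested. In TPM the log2 difference was -0.11 for Col6a1 (95% interval -0.86 to 0.63) and -0.16 for Col6a2 (-0.88 to 0.56), and without WT 3 both signs turned, to 0.18 and 0.10.

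The fibril-associated collagens decorate the surface of fibrils. Col12a1 was at 27.09, 92.78 and 109.66 TPM in the WT libraries and at 71.5, 68.96 and 69.78 TPM in the null libraries, with WT 3 at 4.05 times WT 1. Col14a1 was at 26.42, 47.68 and 48.98 TPM in the WT libraries and at 45.12, 37.99 and 42.51 TPM in the null libraries. Col16a1 was at 32.37, 48.68 and 65.24 TPM in the WT libraries and at 44.85, 49.47 and 47.86 TPM in the null libraries. Null values of all 3 lay between WT 1 and WT 3 and spread far less than the WT values, with a coefficient of variation of 1.85% in the null and 57.0% in WT for Col12a1. Col22a1, a chain of tissue junctions, averaged 3.22 TPM and Col19a1 1.24 TPM. Col7a1, the chain of anchoring fibrils, averaged 2.84 TPM in the WT libraries and 2.73 TPM in the null libraries.

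Type VIII collagen forms hexagonal networks, as in vessel walls and the corneal basement membrane. Col8a1 was at 16.53, 41.65 and 47.08 TPM in the WT libraries and at 36.99, 30.11 and 30.19 TPM in the null libraries, and Col8a2 at 7.36, 21.82 and 29.02 TPM in the WT libraries and at 20.37, 20.34 and 17.88 TPM in the null libraries. Both were lowest in WT 1 and highest in WT 3, as the fibrillar chains were. The markers of endothelial cells (12 of 12 detected), in contrast, summed to 314.4 to 360.09 TPM in the WT libraries and to 320.34 to 339.93 TPM in the null libraries, led by Cldn5 and Slc2a1. Those of pericytes and smooth muscle (10 of 10 detected, led by Rgs5 and Notch3) summed to 145.53 to 159.56 TPM and to 145.37 to 157.03 TPM. In limma, 1 of 12 endothelial and 1 of 9 tested pericyte and smooth muscle markers had a p under 0.05 before adjustment. Both were lower in the null, against 3.13% of all genes tested, and none was higher, against 4.32%.

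Of the 35 tested collagens 18 (51.4%, against 10.1% of all genes tested) were both lowest in WT 1 and highest in WT 3. Col25a1, Col26a1 and Col23a1 were among the rest. Col25a1, a transmembrane collagen of neurons that is needed for motor axons to innervate muscle in mice, was at 13.83, 12.35 and 11.3 TPM in the WT libraries and at 13.17, 12.75 and 13.12 TPM in the null libraries, and was highest in WT 1 and lowest in WT 3. Col26a1 was at 52.9, 50.5 and 59.24 TPM in the WT libraries and at 46.48, 51.37 and 54.17 TPM in the null libraries. Col23a1, another transmembrane collagen, was at 23.12, 29.99 and 28.77 TPM in the WT libraries and at 32.85, 28.84 and 27.83 TPM in the null libraries. The highest library exceeded the lowest by 1.22-fold for Col25a1, 1.27-fold for Col26a1 and 1.42-fold for Col23a1, so these levels were more even than those of the fibrillar chains. Their log2 differences, in that order, were 0.06 (95% interval -0.16 to 0.28), -0.10 (-0.29 to 0.10) and 0.13 (-0.14 to 0.40). Col13a1, a transmembrane collagen of the neuromuscular junction, was lowest in WT 1 and highest in WT 3, at 3.18, 6.28 and 8.62 TPM, and was at 6.62, 6.9 and 6.59 TPM in the null libraries.

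Col28a1, which in mice is found around glia of peripheral nerves, was at 6.24, 4.82 and 10.99 TPM in the WT libraries and at 4.56, 4.87 and 3.1 TPM in the null libraries. Its log2 difference was -0.64 (95% interval -1.32 to 0.05), with an adjusted p of 0.671 by limma, and the groups overlapped at WT 2 and null 2. Sensory ganglion markers (13 of 14 symbols found, none at 0 in every library, led by Sncg and Prph) summed to 902.43, 704.22 and 1147.25 TPM in the WT libraries and to 736.14, 727.92 and 508.85 TPM in the null libraries, again highest in WT 3 and lowest in null 3. Schwann cell markers (12 of 12 detected, Pmp22 among them) summed to 379.14, 230.35 and 282.79 TPM in the WT libraries and to 196.06, 144.01 and 136.06 TPM in the null libraries. The part of nerve tissue outside the cord in the Col28a1 level was not tested.

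Basement membrane collagens varied less between WT libraries and had 1 member with a p under 0.05 before adjustment among 6 tested, Col4a2, which was lower in the null, against 3.13% of all genes tested. Type IV collagen is the network-forming collagen of all basement membranes, and its common form has 2 chains, from Col4a1 and Col4a2. Col4a1 (chromosome 8, 11198423 to 11312826, minus strand) was at 109.57, 101.25 and 146.41 TPM in the WT libraries and at 92.83, 104.42 and 90.67 TPM in the null libraries, and the groups overlapped at null 2 and WT 2. Col4a2 (chromosome 8, 11312805 to 11449287, plus strand) was at 72.01, 71.07 and 84.9 TPM in the WT libraries and at 60.49, 65.69 and 64.9 TPM in the null libraries, so every null library lay below every WT library. The mean of Col4a2 was 76.0 ± 7.73 TPM in the WT libraries and 63.7 ± 2.80 TPM in the null libraries (SD, n = 3 each), 83.8% of WT.

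The log2 difference of Col4a2 was -0.25 (SE 0.08, 95% interval -0.44 to -0.06), with an adjusted p of 0.669 by limma, and that of Col4a1 was -0.29 (SE 0.14, 95% interval -0.62 to 0.04), with an adjusted p of 0.678. Neither passed. Without null 1 the p of Col4a2 before adjustment was 0.063, above 0.05, and without WT 2 that of Col4a1 was 0.0292. The ratio of Col4a1 to Col4a2 TPM was 1.52, 1.42 and 1.72 in WT and 1.53, 1.59 and 1.40 in the null.

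Col4a1 and Col4a2 lie head to head, and the windows around their start sites are shown because both genes are read from the same stretch of DNA in opposite directions. Their RefSeq starts are 21 bases apart, their GENCODE exons overlap by 22 bases, and their windows share 78 bases, from 11312777 to 11312854 of chromosome 8. The Col4a2 window is chr8:11312555-11312854, plus strand, and the Col4a1 window is chr8:11312777-11313076, minus strand. Capitals mark the same motifs as above.
Col4a2: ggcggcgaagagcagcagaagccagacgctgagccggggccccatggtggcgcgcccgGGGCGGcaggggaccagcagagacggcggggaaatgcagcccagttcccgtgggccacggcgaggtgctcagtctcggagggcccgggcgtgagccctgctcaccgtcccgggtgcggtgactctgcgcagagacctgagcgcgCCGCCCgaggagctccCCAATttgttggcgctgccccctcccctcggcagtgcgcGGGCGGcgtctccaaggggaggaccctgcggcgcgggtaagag
Col4a1: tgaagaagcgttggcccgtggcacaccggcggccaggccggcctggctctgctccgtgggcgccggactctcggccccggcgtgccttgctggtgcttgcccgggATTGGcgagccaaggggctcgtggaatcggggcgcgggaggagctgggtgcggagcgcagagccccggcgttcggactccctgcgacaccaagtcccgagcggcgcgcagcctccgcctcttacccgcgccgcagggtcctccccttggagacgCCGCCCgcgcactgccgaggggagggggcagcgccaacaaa
The Col4a2 window held CCAAT at -32 and GGGCGG at -192 and 7 and, on the opposite strand, at -48. The Col4a1 window held CCAAT on the opposite strand at -145 and GGGCGG on the opposite strand at 9, which is the same site as that at 7 in the Col4a2 window. TATAAA was found in neither window. Whether counting used strand is not given, so reads from the shared exon bases, 0.295% of those of Col4a1, could go to either gene.

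Type IV chains Col4a5 and Col4a6 form a basement membrane network of their own and are also paired, on the X chromosome. Col4a5 was at 14.83, 17.57 and 19.19 TPM in the WT libraries and at 21.59, 19.66 and 19.78 TPM in the null libraries, so every null library lay above every WT library. It was the single tested member of which this was true, 1 of 35 against 8.91% of all genes tested, while 3 of 35 lay below, against 5.38%. Its mean was 17.2 ± 2.20 TPM in the WT libraries and 20.3 ± 1.08 TPM in the null libraries (SD, n = 3 each), and its log2 difference of 0.24 (SE 0.11, 95% interval -0.01 to 0.49) had an adjusted p of 0.671 by limma. Col4a6 averaged 5.73 TPM in the WT libraries and 6.37 TPM in the null libraries. Col4a3 and Col4a4, the chains of kidney and lung basement membranes, averaged 0.140 and 0.393 TPM over the 6 libraries, below the filter.

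Type XV and type XVIII collagens sit where basement membranes meet fibrils, and a fragment of the type XVIII chain, endostatin, restrains vessel growth. Col18a1 was at 25.59, 28.19 and 34.41 TPM in the WT libraries and at 27.29, 26.66 and 26.78 TPM in the null libraries, with null values inside the WT range. Col15a1 averaged 11.1 ± 2.78 TPM in the WT libraries and 8.34 ± 0.860 TPM in the null libraries (SD, n = 3 each), with an adjusted p of 0.692 by limma. Summed, basement membrane collagens were at 235.29, 236.05 and 305.81 TPM in the WT libraries and at 218.07, 231.72 and 216.76 TPM in the null libraries, so that their share of all collagen TPM was 17.5% in WT 1 and 9.86% to 10.9% in the other libraries.

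The non-collagen partners of type IV collagen in basement membranes included 3 genes with a p under 0.05 before adjustment. Of 17 listed laminins, nidogens, perlecan, agrin and fibulins 16 were tested, 3 were lower in the null at that p, against 3.13% of all genes tested, none was higher, against 4.32%, and 13 were past neither side. Hspg2, which encodes perlecan, was at 33.53, 33.86 and 40.49 TPM in the WT libraries and at 30.13, 22.65 and 29.11 TPM in the null libraries, and Lama2, a laminin chain of muscle and peripheral nerve, was at 17.76, 13.41 and 22.18 TPM in the WT libraries and at 13.11, 12.25 and 11.45 TPM in the null libraries. Neither gene's groups overlapped. The third was Lamb1, named after its values were seen, at 35.1 TPM in the WT libraries and 27.0 TPM in the null libraries on average. All 3 had an adjusted p of 0.669 by limma, and the list's median log2 difference was -0.10, beside 0.03 for all genes tested.

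**Figure D3:**
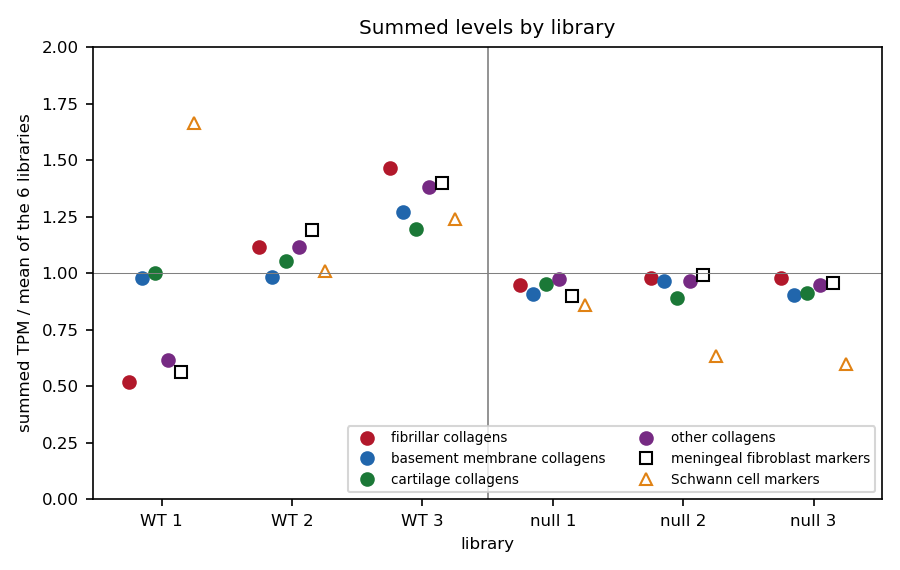
Summed TPM of each collagen class and of the meningeal fibroblast and Schwann cell markers in each library, divided by the mean of the 6 libraries (vertical axis, linear from 0). Fibrillar and other collagens and fibroblast markers are lowest in WT 1 and highest in WT 3, whereas Schwann cell markers are highest in WT 1 and lower in each null library than in any WT library.

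Cartilage-type collagens held the 2 other members with a p under 0.05 before adjustment, Col11a2 and Col9a3, among 6 tested, both lower in the null, against 3.13% of all genes tested. Type XI collagen is the core chain set of cartilage fibrils and is also found outside cartilage. Col11a2 (chromosome 17, 34039437 to 34066685, plus strand) was at 9.97, 5.58 and 7.03 TPM in the WT libraries and at 3.9, 3.66 and 2.81 TPM in the null libraries. Every null library lay below every WT library, and the mean was 7.53 ± 2.24 TPM in the WT libraries and 3.46 ± 0.573 TPM in the null libraries (SD, n = 3 each), 45.9% of WT. The log2 difference was -0.91 (SE 0.21, 95% interval -1.42 to -0.41), the largest in size among the 35 members tested, with a p of 0.00392 before adjustment and an adjusted p of 0.626 by limma. It was negative, with a p under 0.05 before adjustment, in each of the 13 alternative fits.

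Type IX collagen coats cartilage fibrils, and its chains are encoded by Col9a1, Col9a2 and Col9a3. Col9a3 (chromosome 2, 180597790 to 180622189, plus strand) was at 24.8, 21.68 and 17.15 TPM in the WT libraries and at 15.73, 15.1 and 15.28 TPM in the null libraries, again without overlap between the groups. Its mean was 21.2 ± 3.85 TPM in the WT libraries and 15.4 ± 0.324 TPM in the null libraries (SD, n = 3 each), 72.5% of WT, and its log2 difference of -0.43 (SE 0.13, 95% interval -0.74 to -0.11) had a p of 0.0149 before adjustment and an adjusted p of 0.669 by limma. Like Col11a2, it had a p under 0.05 before adjustment in each of the 13 alternative fits. Of its exon bases 6.07% are shared with Tcfl5 on the opposite strand, so its counts are uncertain to that extent if strand was not used.

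Unlike the fibrillar chains, Col9a3 and Col11a2 were highest in WT 1, and their library orders matched that of Mbp and that of the Schwann cell marker sum. From highest to lowest Col9a3 ranked the libraries as WT 1, WT 2, WT 3, null 1, null 3 and null 2, which was also the order of Mbp, encoding myelin basic protein, at 477.42, 313.8 and 167.93 TPM in the WT libraries and 55.26, 39.82 and 41.04 TPM in the null libraries. Col11a2 ranked them as WT 1, WT 3, WT 2, null 1, null 2 and null 3, which was the order of the summed Schwann cell markers given above. Mbp was picked after its values were seen, and 6 of the 12 Schwann cell markers had a p under 0.05 before adjustment, each lower in the null, against 3.13% of all genes tested. The same held for 2 of 13 sensory ganglion markers and 2 of 9 astrocyte markers, and none of the 3 lists had a marker that was higher at that p. Astrocyte markers (9 of 9 detected, led by Aldoc and Glul) also summed highest in WT 1, at 2118.08, 2056.92 and 1684.39 TPM in the WT libraries and at 1789.8, 1641.95 and 1545.14 TPM in the null libraries. The part of oligodendrocytes, astrocytes or Schwann cells in the Col9a3 and Col11a2 levels was not tested.

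**Figure D4:**
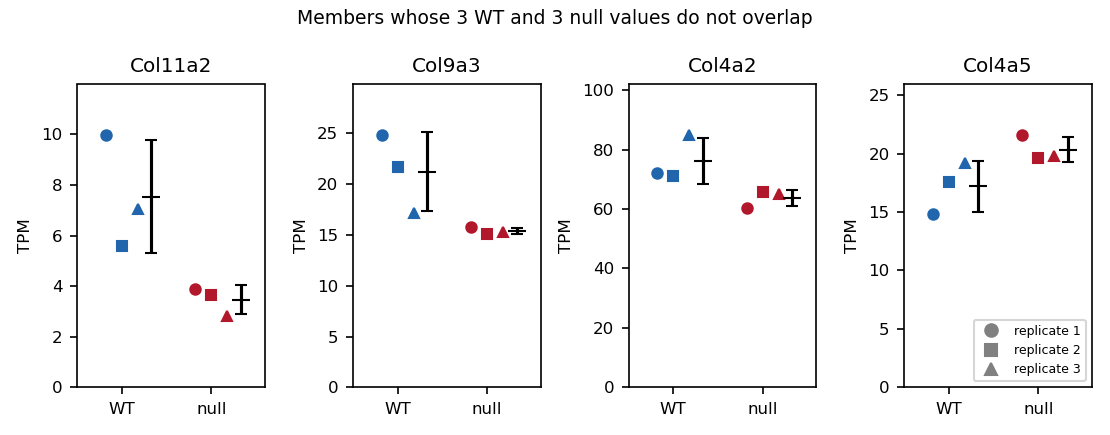
TPM of the 4 tested collagen genes whose WT and null values do not overlap, with 1 point per library (circle, square and triangle for replicates 1, 2 and 3) and the group mean with its SD as a black bar (n = 3 each). Col11a2, Col9a3 and Col4a2 are lower in every null library and Col4a5 is higher.

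None of the other chains of types IX and XI was highest in WT 1 or had groups without overlap. Col9a2 was the most abundant cartilage-type chain, at 38.01, 44.18 and 43.99 TPM in the WT libraries and at 40.86, 40.33 and 39.48 TPM in the null libraries, and its log2 difference was -0.06 (95% interval -0.23 to 0.11). The ratio of Col9a2 to Col9a3 was 1.53, 2.04 and 2.57 in WT and 2.60, 2.67 and 2.58 in the null, so WT 3 came close to the null values and WT 1 was farthest from them. Col9a1 averaged 2.52 TPM in the WT libraries and 1.86 TPM in the null libraries, 73.9% of WT. Its log2 difference was -0.29 (95% interval -0.72 to 0.14), so a fall as large as that of Col9a3 is not excluded. Col11a1 was at 16.74, 21.19 and 29.75 TPM in the WT libraries and at 24.3, 20.5 and 24.0 TPM in the null libraries, lowest in WT 1 and highest in WT 3 as the fibrillar chains were, with a log2 difference of 0.06 (95% interval -0.41 to 0.52).

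The chains that define cartilage itself were low and were highest in WT 3. Col2a1, the main collagen of cartilage, was at 2.62, 3.82 and 8.99 TPM in the WT libraries and at 2.54, 2.74 and 2.09 TPM in the null libraries, and Col10a1, a marker of hypertrophic chondrocytes, at 0.3, 1.03 and 2.82 TPM in the WT libraries and at 0.47, 0.51 and 0.71 TPM in the null libraries. Chondrocyte markers (14 of 14 symbols found, 10 tested, none at 0 in every library, led by Sox9 and Hapln1) summed to 34.7, 37.86 and 49.82 TPM in the WT libraries and to 35.48, 33.96 and 30.73 TPM in the null libraries, and that list includes Col2a1 and Col9a1. Aggrecan (Acan), which defines cartilage matrix but is also made in the cord, lay between 1.37 and 2.69 TPM.

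The summed bone and muscle markers were also high in WT 3, though not every marker was. Osteoblast markers (9 listed, 3 tested, led by Alpl and Spp1, with Bglap at 0 in every library) summed to 19.76, 22.76 and 42.41 TPM in the WT libraries and to 19.34 to 20.59 TPM in the null libraries, with the bone protein gene Ibsp at 3.74 TPM in WT 3 and at most 1.44 TPM elsewhere. Skeletal muscle markers (15 of 15 found, 11 tested, led by Acta1 and Mylpf) summed to 16.34, 24.61 and 95.52 TPM in the WT libraries and to 16.28, 21.32 and 216.01 TPM in the null libraries, highest in null 3. Tendon markers (6 of 6 found, 5 tested, led by Fmod and Scx) summed to 37.18, 65.4 and 77.19 TPM in the WT libraries and to 51.7 to 53.93 TPM in the null libraries. The part of these tissues in the collagen levels was not tested.

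**Figure D5:**
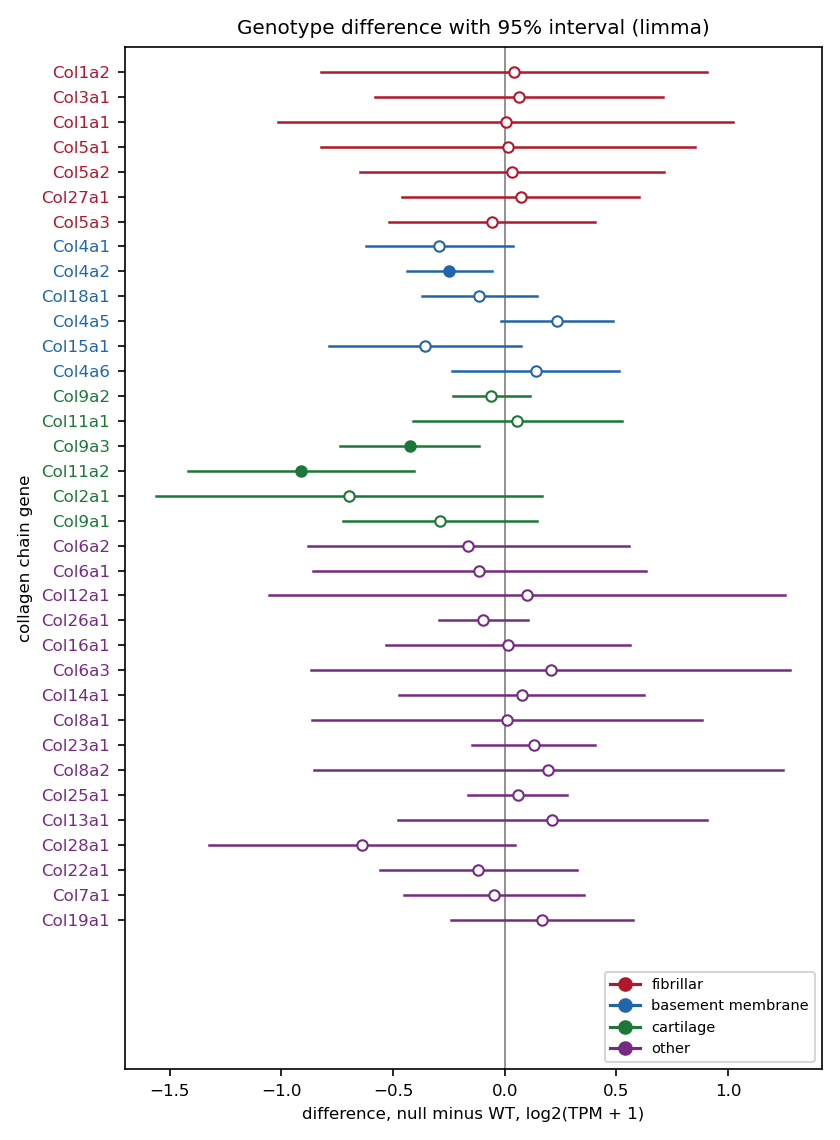
Difference between null and WT on the log2(TPM + 1) scale for the 35 tested collagen genes, with 95% intervals from limma (n = 3 each) and genes coloured by class. Filled points, for Col11a2, Col9a3 and Col4a2, have a p under 0.05 before adjustment; no gene passes after adjustment over all 15962 genes, and the fibrillar chains lie near 0 with wide intervals.

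Leaving out WT 1 changed the count of collagen members more than any other library did. Of the 35, 14 (40%) then had a p under 0.05 before adjustment and were lower in the null, against 4.69% of all genes tested, and none was higher, against 3.21%. They comprised 3 of 7 fibrillar genes, 2 of 6 basement membrane genes, 4 of 6 cartilage genes and 5 of 16 others. Col12a1 then had the smallest p, with a log2 difference of -0.52 (95% interval -0.72 to -0.32), and an adjusted p of 0.483 by limma. None of the 35 passed the adjusted threshold in this fit either, and 31 of the 35 differences were negative. Without WT 2 the count of lower members was 5 of 35, against 2.52% of all genes tested. It was 3 without WT 3 (against 3.74%), without null 2 (2.06%) or without null 3 (1.93%), and 2 without null 1 (2.73%). Col4a5 was the only member with a p under 0.05 in the higher direction when any 1 library was left out. That was without WT 3, against 5.74% of all genes tested.

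The summed enzymes that build collagen were also lowest in WT 1 and highest in WT 3, and no gene of the list passed the test. Of 22 listed genes of collagen folding and modification 21 were found and tested, 0 were higher and 0 lower at a p under 0.05 before adjustment, and WT 1 was the lowest library for 17. The list summed to 959.88, 1212.8 and 1319.69 TPM in the WT libraries and to 1132.63, 1165.76 and 1121.36 TPM in the null libraries, and its median log2 difference was -7.8e-05. The smallest p belonged to Plod1, a lysyl hydroxylase, at 27.29, 33.63 and 37.7 TPM in the WT libraries and 28.03, 32.05 and 25.09 TPM in the null libraries, and the next to P4ha3, a prolyl hydroxylase subunit, at 16.6 TPM in the WT libraries and 18.4 TPM in the null libraries on average.

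Among 17 genes of procollagen cleavage and cross-linking 13 were tested and 0 had a p under 0.05 in either direction. They summed to 757.25, 1161.64 and 1364.13 TPM in the WT libraries and to 995.96 to 1031.09 TPM in the null libraries, with WT 1 the lowest library for 11. Pcolce2, an enhancer of procollagen cleavage, averaged 1.22 TPM in the WT libraries and 1.80 TPM in the null libraries, and Adamts3, a procollagen N-proteinase, 5.28 and 5.93 TPM. Of 11 collagen-binding proteoglycans 10 were tested and 0 were past that p, and their sum was 2.44-fold higher in WT 3 than in WT 1. Omd averaged 1.46 TPM in the WT libraries and 0.867 TPM in the null libraries, and Ogn 23.6 and 26.5 TPM.

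The summed receptors and collagen-degrading enzymes spread less between WT 1 and WT 3 than the summed fibrillar collagens, though single genes varied more. Of 13 collagen receptors 12 were tested, none of them past a p of 0.05 before adjustment, and their sum lay between 279.51 and 323.19 TPM in the WT libraries and between 284.95 and 339.22 TPM in the null libraries. The highest sum, in null 1, held Adgrg6 at 30.58 TPM, against 4.22 to 7.35 TPM in the other libraries, and Ddr2 ran from 3.95 TPM in WT 1 to 12.46 TPM in WT 3; both were named after their values were seen. Itga10 and Itga2, integrin chains that bind collagen, averaged 2.0 and 1.42 TPM in the WT libraries and 1.58 and 1.08 TPM in the null libraries. Of 16 collagenases and inhibitors 13 were tested, none past that p, with Timp3, an inhibitor of matrix metalloproteinases, at 91.2 TPM in the WT libraries and 80.5 TPM in the null libraries, and Ctsb, a lysosomal protease, at 212 and 199.8 TPM.

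The 9 collagen genes below the filter were Col24a1, Col4a3, Col4a4, Col10a1, Col6a4, Col6a5, Col6a6, Col17a1 and Col20a1, each with a mean under 1 TPM over the 6 libraries. None was at 0 in all 6 libraries. The values of Col6a6 were 0.28, 0.59 and 0.31 TPM in the WT libraries and 0.79, 0.65 and 0.86 TPM in the null libraries, and those of Col6a4 were 0.55, 0.42 and 0.47 TPM in the WT libraries and 0.14, 0.04 and 0.35 TPM in the null libraries, so the groups did not overlap in either gene. Col6a4, Col6a5 and Col6a6 are neighbouring copies of a type VI chain on chromosome 9, so reads could be split between them and these low values are uncertain.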

How the data were processed

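The authors deposited expression as TPM for 55487 genes, a unit read from the column sums of 993139 to 994687. The submitters' processing notes name RSEM and DESeq2 and the build GRCm38.p6 without roles; aligner and annotation are not stated there. The deposited TPM hold no depth, and 1 column of per-sample values matched no label and was not used. Positions are those of GENCODE M21, where 55141 of the IDs were found.

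From these values limma 3.58.1 (R 4.3.3, variance trend, genotype as the only term, two-sided) was fitted on log2(TPM + 1), a scale that understates changes of low genes, for 15962 genes with a mean of at least 1 TPM; p-values were Benjamini-Hochberg adjusted over all of them. On simulated data of this comparison, 15962 genes with 200 changed, it recovered 75.6% of genes changed by 1 (adjusted p under 0.05) and 93.6% of those changed by 2 on the log2 scale. False calls came to 54 over the 5 simulated sets. The changed genes were drawn from all genes tested, whose median coefficient of variation in WT was 10.6%, against 29.3% for the tested collagens. Noise was simulated for each gene separately, so shifts that many genes of 1 library share were not included. In the measured data none of the 15962 genes passed, not even Mbp and Myt1, whose groups did not overlap. The rates were not measured for collagens and do not show that changes in them, or in other genes of these libraries, would be found. Class sums and marker sums were not tested. Figures used matplotlib 3.10.9.

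The members, classes, lists and tests were chosen with earlier results of these data known. Values in every sample are given for members with a mean of at least 10 TPM, a p under 0.05 or groups without overlap; of each pathway list the 2 genes with the smallest p are named, of each marker list the sum and the 2 most abundant genes; others were named after their values were seen. Some genes under these rules are left out of the text but stay in every test and sum. Of the listed symbols, Ctage5 and Drg11 were not matched in the table.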

Additional observations from a re-analysis of the deposited data

How the results depend on the processing

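Col11a2, Col9a3 and Col4a2 kept their direction in all 13 alternative fits; their p before adjustment was under 0.05 in 13, 13 and 12 of them. No collagen member passed an adjusted p of 0.05 in any of them. Over all genes the count past that threshold by limma was 0, with 1189 at an unadjusted p under 0.05, and it was 1 with a pseudocount of 0.1 and 0 to 7 with 1 library left out, 7 of them without WT 2. The number of members with a p under 0.05 before adjustment was 2 to 14 lower and 0 to 1 higher with 1 library left out. The shares of all genes tested were then 1.93% to 4.69% lower and 2.44% to 5.74% higher. Without a filter 4 of 44 members were lower, against 2.56% of all genes tested, and 1, Col6a6, was higher, against 3.08%.

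Signs turned for small differences. Median-ratio scaling gave -0.022 for Col1a1, -0.0092 for Col5a1, -0.011 for Col16a1 and -0.012 for Col8a1, and leaving out mitochondrially encoded genes, chosen after seeing the data, gave -0.0056 for Col1a1. With 1 library left out the log2 difference ranged from -0.13 to 0.27 for Col11a1, -0.41 to 0.36 for Col1a2, -0.26 to 0.33 for Col3a1, -0.53 to 0.38 for Col1a1, -0.41 to 0.33 for Col5a1, -0.31 to 0.32 for Col5a2, -0.52 to 0.47 for Col12a1, -0.25 to 0.25 for Col16a1, -0.34 to 0.64 for Col6a3, -0.21 to 0.23 for Col14a1, -0.44 to 0.28 for Col8a1, -0.35 to 0.57 for Col8a2, -0.20 to 0.0025 for Col18a1, -0.53 to 0.10 for Col6a2, -0.49 to 0.18 for Col6a1 and -0.0060 to 0.13 for Col25a1. Every one of these genes that turned negative did so without WT 1 except Col25a1, and Col18a1, Col6a1 and Col6a2 turned positive without WT 3; the cause was not tested.

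Same-numbered samples deviated from their group means with correlations of 0.031, -0.070 and 0.061 across genes, so the numbers were not taken to pair the samples. With the replicate block the members with a p under 0.05 were again 3 of 35, all lower, against 3.06% of all genes tested, and none passed after adjustment. Median-ratio scaling moved the split of all genes at an unadjusted p under 0.05 from 690 higher and 499 lower to 551 and 656. Depth is unknown, so what counting error adds to low chains such as Col6a4 cannot be given.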
